A study of Mus musculus with 16 samples.

Results

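The adenosine pathway was followed through 4 genes, Entpd1, Nt5e, Adora2a and Ada, which were chosen by name from the 770 genes of the NanoString mouse PanCancer Immune panel and were all measured. Extracellular ATP released by stressed or dying cells is cleared in steps. The ectoenzyme CD39, encoded by Entpd1, removes phosphates from ATP and ADP to leave AMP, and CD73, encoded by Nt5e, turns AMP into adenosine. The adenosine receptor encoded by Adora2a senses adenosine on T cells, NK cells and myeloid cells and raises cyclic AMP inside them, which dampens their activity, and adenosine deaminase, encoded by Ada, removes adenosine by turning it into inosine. In human epithelial cells the NT5E gene is a known target of the hypoxia-inducible factor HIF-1, and low oxygen is a setting in which this pathway is often studied.

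RNA was counted in 16 mouse tumours. The lines were MC38, from mouse colorectal cancer, and E0771, from mouse breast cancer, each with 8 tumours, and 500000 cells with Matrigel had been placed at the right shoulder. Every mouse had received immunotherapy against PD-1 and CTLA-4, so all 4 groups share that treatment, and no untreated group is analysed here. Tumours were taken after the day 5 imaging and kept in RNAlater. They were labelled hypoxic or normoxic. The study imaged hypoxia with the PET tracer FMISO, and its uptake values were not analysed here. The MC38 groups were 4 normoxic tumours (mice 4, 7, 10 and 21) and 4 hypoxic tumours (mice 12, 14, 17 and 25). The E0771 groups were 5 normoxic tumours (mice 4, 17, 38, 65 and 71) and 3 hypoxic tumours (mice 12, 22 and 55). The sources used here do not give the strain, sex or age of the mice. Each cancer is represented by 1 line, and the runs on the instrument are not given, so run and line cannot be told apart.

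Values are the deposited normalized signal, which sets the 20 housekeeping genes to the same geometric mean (779.7) in each tumour. A difference is therefore relative to those genes. The estimated number of counts behind a tumour ran from 180274 to 890239. The 5 tumours of fewest counts were E0771 hypoxic 12 and 22, E0771 normoxic 65 and MC38 hypoxic 14 and 25, so 4 of these 5 were hypoxic. All 4 pathway genes were among the 712 genes tested, which needed a mean of at least 24.0 over the 16 tumours, the mean plus 2 SD of the scaled negative-control probes. Epithelial markers did not mark all tumours, since Epcam ran from 3.73 to 496.59 and Cdh1 from 12.42 to 742.61. The leukocyte gene Ptprc was measured from 64.6 to 1702.0 in MC38 and from 77.5 to 1322.5 in E0771. In a piece of tumour, fewer cells of a type and less RNA per cell cannot be told apart.

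The genes lie on separate mouse chromosomes in GRCm38.p6. Entpd1 spans chr19:40612366-40741602, Nt5e chr9:88327609-88372089, Adora2a chr10:75316877-75334792 and Ada chr2:163726571-163750239. The promoters are shown because the samples differ by hypoxia status and HIF binds a short core, ACGTG or GCGTG, in the DNA of its target genes. RefSeq promoter windows of GRCm38.p6, 250 bases before to 50 after an annotated start, were matched for 3 of the 4 genes, and no window is shown for Adora2a. They are written in the direction of transcription, with every match to the core on either strand in capitals.
Entpd1: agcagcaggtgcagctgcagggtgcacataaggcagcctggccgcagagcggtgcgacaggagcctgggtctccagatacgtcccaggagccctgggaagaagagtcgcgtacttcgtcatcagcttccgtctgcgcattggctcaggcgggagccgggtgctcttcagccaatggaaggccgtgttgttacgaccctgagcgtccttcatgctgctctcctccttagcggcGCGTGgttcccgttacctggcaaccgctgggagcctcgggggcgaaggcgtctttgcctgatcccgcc
Nt5e: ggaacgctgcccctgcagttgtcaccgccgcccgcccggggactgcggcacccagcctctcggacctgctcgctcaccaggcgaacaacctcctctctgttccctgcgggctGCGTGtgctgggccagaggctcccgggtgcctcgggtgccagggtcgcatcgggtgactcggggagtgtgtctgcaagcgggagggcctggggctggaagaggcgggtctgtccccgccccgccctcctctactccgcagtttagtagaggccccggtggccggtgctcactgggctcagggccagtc
Ada: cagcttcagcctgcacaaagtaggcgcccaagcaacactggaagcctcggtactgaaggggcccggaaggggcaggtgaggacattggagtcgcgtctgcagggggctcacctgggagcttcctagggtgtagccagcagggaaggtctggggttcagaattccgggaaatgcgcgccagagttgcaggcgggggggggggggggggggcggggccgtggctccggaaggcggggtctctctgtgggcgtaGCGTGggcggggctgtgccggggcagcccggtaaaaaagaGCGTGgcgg
The Entpd1 window (chr19:40612116-40612415, plus strand) held 1 match, at -18 from the start. A second annotated Entpd1 start (chr19:40659520-40659819) held 0 matches. The Nt5e window (chr9:88327359-88327658, plus strand) held 1 match, at -138, and the Ada window (chr2:163750190-163750489, minus strand) held 2 matches, at 1 and 41. Such matches are common, being present in 43.8% of 32851 mouse promoter windows and in 45.0% of the 696 windows of panel genes. A match describes these letters and does not show binding.

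Hypoxic MC38 tumours had lower Entpd1, Nt5e and Adora2a and a higher mean Ada than normoxic MC38 tumours. In a fit across all genes with limma at an adjusted p under 0.05, 3 of the 4 genes fell, where 48% of the 712 genes fell. Adora2a is 1 of these 3, and it reached the filter through its normoxic tumours and was near background in the hypoxic ones, so the count is a description only. 0 of the 4 rose, where 0.562% of all genes rose and 48.6% passed in either direction. The median gene itself was at -1.27 on the log2 scale in this comparison, so a fall is what most of the panel showed. Ada was at the other end, higher than 98.6% of all genes in its log2 difference.

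Entpd1, the first enzyme of the pathway, had normalized signals of 841.78, 370.11, 209.71 and 380.78 in the normoxic MC38 tumours of mice 4, 7, 10 and 21. The hypoxic MC38 tumours of mice 12, 14, 17 and 25 had 113.58, 76.05, 230.66 and 50.92. The groups overlapped at hypoxic 17 and normoxic 10, and 3 of the 4 hypoxic tumours lay below every normoxic tumour. The group means were 450.6 ± 272.3 and 117.8 ± 79.5 (SD, n = 4 and 4). The log2 difference was -1.97 ± 0.62 (SE, limma adjusted p = 0.0186). This call was lost without normoxic 4 (-1.61) or without hypoxic 25, with tumours centred on their median gene (-0.85), with positive-control scaling (-1.85) and without the 5 tumours of fewest counts (-1.29). Over all alternatives its adjusted p ran from 0.00815 to 0.230.

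Nt5e, which makes the adenosine, was at 164.06, 93.97, 45.25 and 85.51 in normoxic MC38 tumours of mice 4, 7, 10 and 21. In the hypoxic tumours of mice 12, 14, 17 and 25 it was at 59.65, 23.15, 65.72 and 13.66. Hypoxic 12 and 17 overlapped normoxic 10, while hypoxic 14 and 25 had the lowest values of all 16 tumours. These lowest values rested on 14 and 11 estimated counts, and that of hypoxic 25 was just above its background level of 13.14. The means were 97.2 ± 49.4 and 40.5 ± 26.0, with a log2 difference of -1.36 ± 0.53 (SE, limma adjusted p = 0.0439). It lay near the median gene, with 47.5% of genes at or below it. The call did not last when single tumours were left out, as it passed in 9 of 16 such fits and was lost without MC38 normoxic 4, 7 or 21, MC38 hypoxic 14 or 25, or E0771 normoxic 38 or 71. Relative to the median gene the difference was -0.24, and over all alternatives the adjusted p ran from 0.0154 to 0.702.

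Adora2a had signals of 144.13, 112.77, 20.11 and 84.17 in the normoxic MC38 tumours in the same order of mice. In the hypoxic ones it had 10.62, 9.92, 20.37 and 8.69. Normoxic 10 and hypoxic 17 were side by side, and the other 3 hypoxic tumours lay below every normoxic tumour. The means were 90.3 ± 52.8 and 12.4 ± 5.37, a log2 difference of -2.54 ± 0.64 (SE, limma adjusted p = 0.00812). It fell in each of the 16 fits that leave out 1 tumour (-3.14 to -2.21) and relative to the median gene (-1.41, adjusted p = 0.0351), and was lost without the 5 tumours of fewest counts (-2.23, adjusted p = 0.170). Over all alternatives the adjusted p ran from 0.000518 to 0.170, and a filter at a mean of 50 left Adora2a untested. Adora2a was close to the detection limit in hypoxic tumours. It was not above the tumour's own negative-control probes (mean plus 2 SD) in MC38 hypoxic 14 and 25, where it rested on 6 and 7 estimated counts, and its hypoxic means in both lines lay below the filter level of 24.0, so it was tested because of its normoxic tumours.

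Ada, the enzyme that removes adenosine, went the other way. Its normoxic MC38 signals were 90.46, 133.01, 329.64 and 192.39, and its hypoxic signals were 270.46, 325.69, 304.92 and 366.4. The 4 hypoxic tumours lay within a narrow range (316.9 ± 40.1), whereas the normoxic tumours were spread out (186.4 ± 104.3), and normoxic 10 exceeded 3 of the hypoxic tumours. The log2 difference of 0.92 ± 0.40 did not pass (SE, limma adjusted p = 0.0636). It passed without normoxic 10 (1.24, adjusted p = 0.00971). Relative to the median gene it was 2.04 and passed (adjusted p = 0.0208), and on the scale of the positive-control probes it did not pass. Over all alternatives the adjusted p ran from 0.00971 to 0.319.

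**Figure D1:**
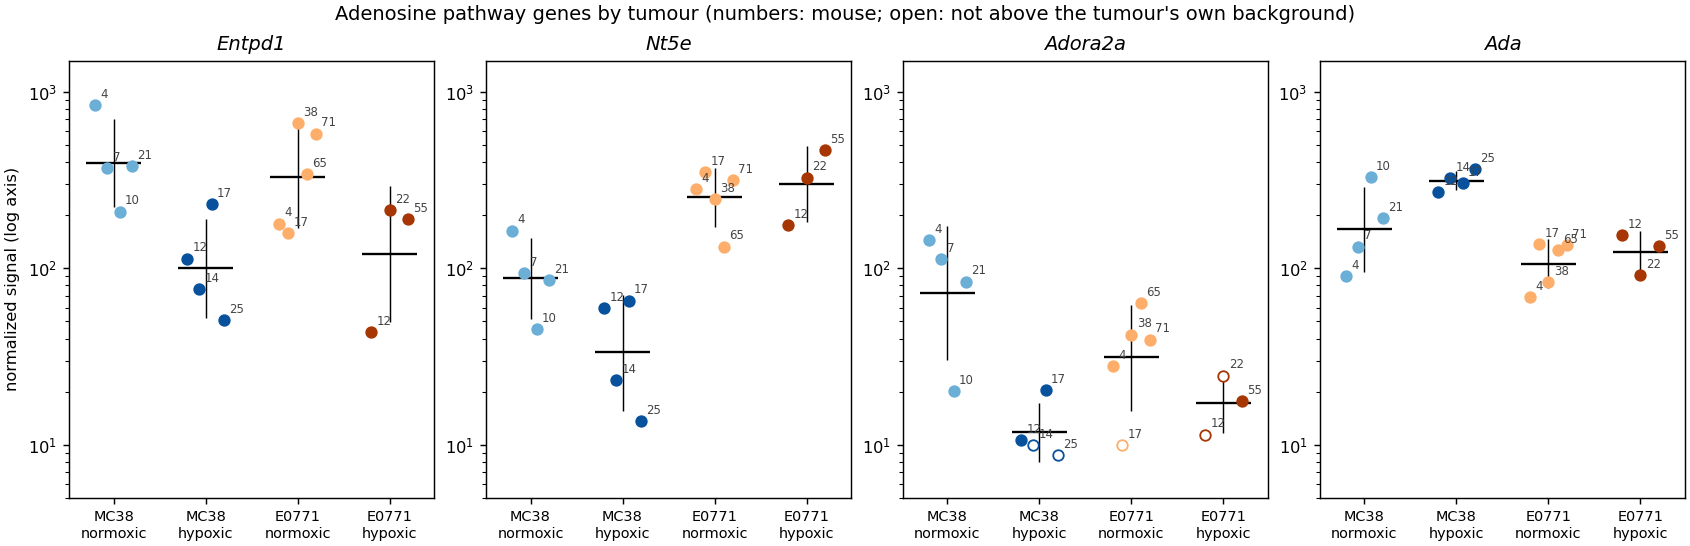
Normalized signal (log axis) of Entpd1, Nt5e, Adora2a and Ada in each of the 16 tumours, with the mouse number beside each point, the horizontal line at the mean of log2(signal + 1) turned back to signal, and the vertical line at ± 1 SD on that scale. For Entpd1 and Adora2a in MC38, hypoxic 17 and normoxic 10 sit between the other tumours of their groups, and open points mark the 5 tumours in which Adora2a was not above background.

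Each gene was also tested by permuting the MC38 tumours, which borrows nothing from other genes. The exact two-sided permutation p was 0.0571 for Entpd1 and for Adora2a and 0.114 for Nt5e and for Ada (n = 4 and 4), where 0.0286 is the smallest p that the design allows. Every hypoxic MC38 tumour had less Entpd1, Nt5e and Adora2a, and more Ada, than the mean normoxic tumour. For each gene the 2 groups still overlapped, and 87.2% of the 712 genes had a negative log2 difference in MC38. The share of all genes with every hypoxic tumour on 1 side of the normoxic mean was not computed.

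In E0771 none of the 4 genes passed, and 0% of the 712 genes did (limma, 45 genes at an unadjusted p under 0.05, and 0 genes with voom weights). With positive-control scaling 129 genes passed. Entpd1 had 179.3, 158.93, 665.78, 342.48 and 581.39 in the normoxic tumours of mice 4, 17, 38, 65 and 71, and 43.33, 214.72 and 190.46 in the hypoxic tumours of mice 12, 22 and 55. Normoxic 4 and 17 lay below 2 of the hypoxic tumours, and hypoxic 12 had the lowest value of the 16. That lowest value rested on 19 estimated counts and was just above the tumour's own background level of 42.95. The means were 385.6 ± 230.6 and 149.5 ± 92.7 (SD, n = 5 and 3) and the log2 difference was -1.43 ± 0.65 (SE, limma adjusted p = 0.620). Without hypoxic 12 it was -0.69. On the scale of the positive-control probes it was -2.61 and passed, and the adjusted p ran from 0.0345 to 0.997 over all alternatives.

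Nt5e did not show a lower level in hypoxic E0771 tumours. The normoxic signals were 282.21, 352.38, 246.01, 132.74 and 317.31, and the hypoxic signals were 175.6, 327.37 and 470.38. The groups overlapped over most of their ranges, and hypoxic 55 was the highest of all 16 tumours. The log2 difference was 0.25, with a 95% interval of -0.92 to 1.41 (limma adjusted p = 0.911). Its sign turned without hypoxic 55 (-0.08) and with positive-control scaling (-0.96).

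Adora2a in E0771 could be compared only in part. Its normoxic signals were 27.78, 9.99, 42.07, 63.72 and 39.4, and its hypoxic signals were 11.4, 24.64 and 17.74. It was not above background in hypoxic 12, hypoxic 22 or normoxic 17, which leaves 1 hypoxic tumour above it. The log2 difference was -0.84 ± 0.66 (SE, limma adjusted p = 0.649). It was -2.67 with background subtracted and -1.92 with positive-control scaling, and did not pass in either. Ada had 68.82, 137.14, 83.22, 127.43 and 135.23 in normoxic and 155.08, 91.52 and 133.4 in hypoxic E0771 tumours. These ranges overlapped, and the log2 difference of 0.22 had a 95% interval of -0.65 to 1.08 (limma adjusted p = 0.885). Exact two-sided permutation gave p = 0.214 for Entpd1, 0.643 for Nt5e, 0.286 for Adora2a and 0.464 for Ada in E0771 (n = 5 and 3, smallest possible p 0.0357).

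**Figure D2:**
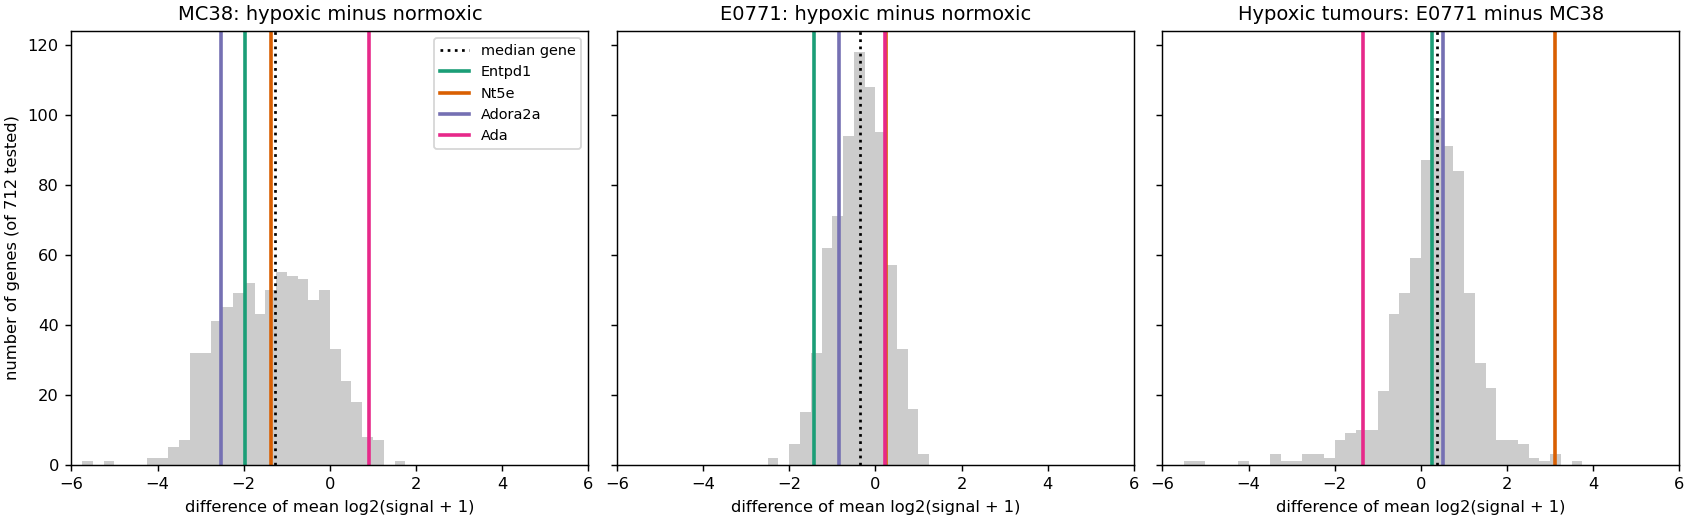
Histograms of the difference of mean log2(signal + 1) for the 712 genes tested, with the 4 pathway genes as coloured lines and the median gene dotted, for hypoxic minus normoxic MC38 tumours, hypoxic minus normoxic E0771 tumours and E0771 minus MC38 among hypoxic tumours. Ada lies at the upper end in MC38 (0.92, median gene -1.27), Nt5e lies behind Ada in the E0771 panel (0.25 and 0.22), and Nt5e lies at the upper end among hypoxic tumours (3.12).

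Averaged over both lines with equal weight, 2 of the 4 genes fell with hypoxia, where 41.4% of genes fell, 0.702% rose and 42.1% passed in either direction. These were Entpd1 (-1.70 ± 0.45) and Adora2a (-1.69 ± 0.46), both with a limma adjusted p = 0.0184. Adora2a was not above background in 4 of the 7 hypoxic tumours, and with background subtracted its difference was -2.97. It reached the filter through its normoxic tumours, so the count of 2 is a description only. Both calls were lost without E0771 hypoxic 12 (adjusted p = 0.0662 for both), where Entpd1 was just above background, and without the 5 tumours of fewest counts. With tumours centred on their median gene the Adora2a call was also lost (-0.91, limma adjusted p = 0.058). Nt5e (-0.56, adjusted p = 0.229) and Ada (0.57, adjusted p = 0.106) did not pass. Ada passed without MC38 normoxic 10 (0.73, limma adjusted p = 0.0248) and with median centring (1.34, adjusted p = 0.0223). The test of the difference between the lines in their hypoxia effect passed for 0 of the 4, with 0% of all genes passing (limma, 133 genes at an unadjusted p under 0.05, and 0 genes with voom weights). Its value was 1.61 ± 0.77 for Nt5e (SE, adjusted p = 0.270) and 1.70 ± 0.92 for Adora2a (adjusted p = 0.314). Without MC38 normoxic 10, Adora2a passed (2.30, adjusted p = 0.0484), as did 132 genes in all. The fall of Nt5e in MC38 is therefore not shown to differ from its value in E0771.

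**Figure D3:**
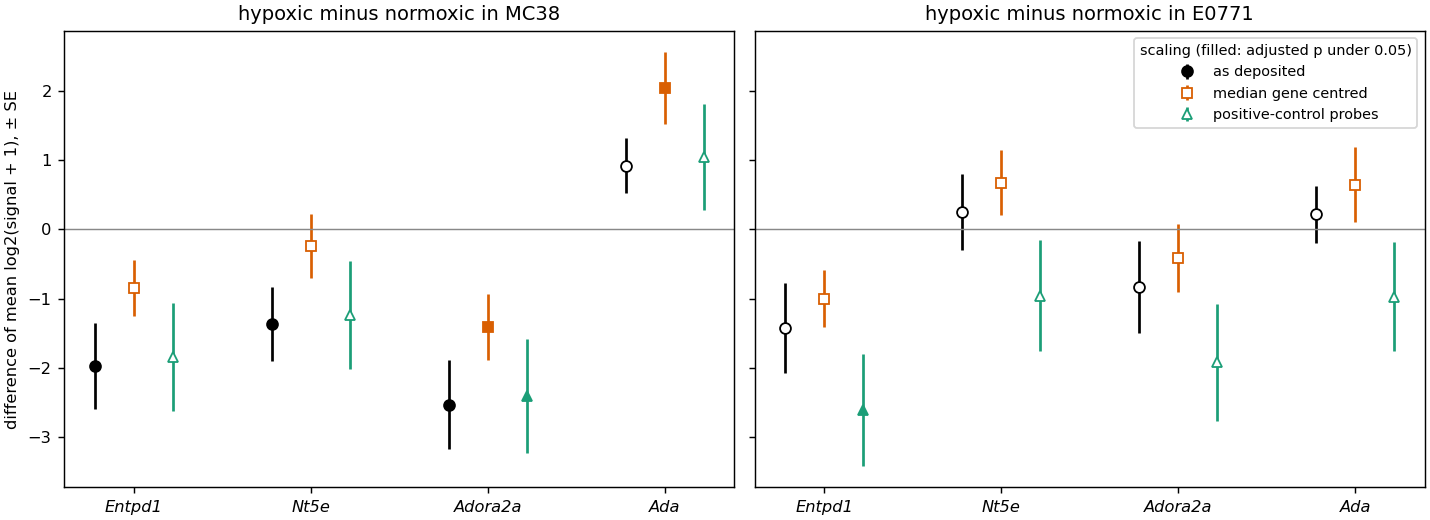
Difference of mean log2(signal + 1), hypoxic minus normoxic, for each gene in MC38 and in E0771, with SE, under the deposited housekeeping scaling (circles), with each tumour centred on its median gene (squares) and on the positive-control probes (triangles). Filled symbols passed an adjusted p of 0.05; Adora2a in MC38 is filled under each of the 3 scalings, and Ada in MC38 only with median centring (2.04).

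Nt5e was among the genes that differed most between the lines in hypoxic tumours. Among hypoxic tumours the 3 E0771 values (175.6 to 470.38) lay above all 4 MC38 values (13.66 to 65.72), a pattern shared by 13.8% of genes. The means were 324.5 ± 147.4 and 40.5 ± 26.0, and the log2 difference of 3.12 ± 0.58 (SE, limma adjusted p = 0.00285) corresponds to 8.71-fold and ranked 710 of 712 genes from the lowest. 1 of the 4 pathway genes was thus called higher in E0771 there, where 4.49% of genes were. 0 of the 4 were called lower, where 3.37% of genes were, and 7.87% passed in either direction. The call held in each of the 16 fits without 1 tumour (2.71 to 3.51) and was lost with positive-control scaling (1.68, adjusted p = 0.207) and without the 5 tumours of fewest counts (2.89), and over all alternatives the adjusted p ran from 0.00041 to 0.207. The lowest MC38 value, 13.66 in hypoxic 25, was just above that tumour's background level of 13.14. Among normoxic tumours the difference was 1.51 ± 0.51, higher than 99% of genes but short of the threshold (limma adjusted p = 0.0519), and none of the 4 genes passed, where 15.7% of genes did, 14.3% lower and 1.4% higher in E0771. It passed relative to the median gene (1.88), with an adjusted p of 0.00669 to 0.241 over all alternatives.

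Ada was the reverse of Nt5e between the lines. The 3 hypoxic E0771 tumours (91.52 to 155.08) lay below all 4 hypoxic MC38 tumours (270.46 to 366.4), a pattern shared by 7.3% of genes. The log2 difference was -1.34 ± 0.43 (SE, limma adjusted p = 0.0679), which did not pass, and with positive-control scaling it was -2.77 and passed, with an adjusted p of 0.0175 to 0.981 over all alternatives. In the ratio of Nt5e to Ada within a tumour the scaling factor cancels, apart from the pseudocount of 1. The log2 ratio was between -4.65 and -2.16 in hypoxic MC38 tumours and between 0.18 and 1.83 in hypoxic E0771 tumours, a difference of 4.46. In normoxic tumours the lines overlapped, at -2.84 to 0.85 in MC38 and 0.06 to 2.02 in E0771, a difference of 2.15. This ratio joins the genes that lay furthest apart in this comparison. It was not tested, and the share of gene pairs separated in the same way was not computed. Entpd1 and Adora2a did not pass between the lines. The differences of hypoxic tumours were 0.27 (95% interval -1.15 to 1.69, limma adjusted p = 0.842) for Entpd1 and 0.51 (-0.95 to 1.97, adjusted p = 0.736) for Adora2a. In normoxic tumours Entpd1 was at -0.28 (adjusted p = 0.802), Adora2a at -1.19 (adjusted p = 0.208) and Ada at -0.64 (adjusted p = 0.271). Without MC38 normoxic 10, Adora2a was called lower in normoxic E0771 (-1.79, adjusted p = 0.0182).

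By group mean, Entpd1 and Adora2a had the same order of the 4 groups, and Nt5e and Ada each had another. For Entpd1 it was MC38 normoxic, E0771 normoxic, E0771 hypoxic and MC38 hypoxic from the highest, and no pair of neighbours in this order passed the test of its difference. Nt5e ran from E0771 hypoxic through E0771 normoxic and MC38 normoxic to MC38 hypoxic, and of these steps only the last passed. Adora2a ran from MC38 normoxic (90.3 ± 52.8) through E0771 normoxic (36.6 ± 19.7) and E0771 hypoxic (17.9 ± 6.62) to MC38 hypoxic (12.4 ± 5.37), with no neighbours passing. The order of its 2 hypoxic groups is not settled, since several of their values were not above background and the difference turned with background subtraction (-0.94) and positive-control scaling (-0.81). Ada ran from MC38 hypoxic through MC38 normoxic and E0771 hypoxic (126.7 ± 32.3) to E0771 normoxic (110.4 ± 32.0), again with no tested neighbours passing, and MC38 normoxic was not tested against E0771 hypoxic.

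Within MC38 the genes varied together from tumour to tumour. Entpd1 and Nt5e had Pearson's r = 0.95 and Spearman's rho = 0.95 over the 8 tumours (exact permutation p = 0.00035 and 0.00114, and 0.00402 and 0.00342 adjusted over the 12 relations computed, 6 pairs in each line). After subtraction of the mean of each hypoxia status, r was 0.94, and without the 2 tumours of most extreme Entpd1 it was 0.87. The permutations exchanged tumours across hypoxia status, so each p includes any difference between hypoxic and normoxic tumours. The r within status was not tested. Entpd1 and Adora2a gave r = 0.93 and rho = 0.98 (adjusted exact permutation p = 0.00402 and 0.0024), with r = 0.80 within status and 0.91 without the 2 extreme tumours. Ada ran against all of the others. With Adora2a it had r = -0.92 and rho = -0.88 (adjusted exact permutation p = 0.00556 and 0.0174), with -0.88 within status and -0.85 without the 2 extreme tumours. With Entpd1 it had r = -0.86 and rho = -0.86 (adjusted exact permutation p = 0.0123 and 0.0214) and with Nt5e r = -0.84 and rho = -0.95 (adjusted 0.0199 and 0.00342), each -0.72 within status and -0.70 and -0.96 without the 2 extreme tumours. For Nt5e and Adora2a r was 0.85 and rho 0.98 (adjusted exact permutation p = 0.0123 and 0.0024), with 0.73 within status and 0.85 without the extremes. Adora2a was not above background in MC38 hypoxic 14 and 25, so its relations rest in part on values near background.

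All genes of a tumour share its scaling factor and most of the panel moves together, which bears on these values. With each MC38 tumour centred on its median gene r was 0.75 for Entpd1 and Nt5e, 0.75 for Entpd1 and Adora2a, 0.36 for Nt5e and Adora2a, and -0.93, -0.81 and -0.52 for Ada with Adora2a, Entpd1 and Nt5e. In E0771 only Entpd1 and Adora2a passed (r = 0.78, rho = 0.83, adjusted exact permutation p = 0.0340 and 0.0264), with r = 0.70 within status, 0.73 without the 2 extreme tumours and 0.32 after centring. Adora2a was not above background in E0771 normoxic 17, hypoxic 12 or hypoxic 22, so this relation rests in part on values near background. Nt5e did not vary with Entpd1 there (r = 0.10, rho = -0.17, adjusted exact permutation p = 0.822 and 0.767). Whether the lines differ in this relation was not tested.

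**Figure D4:**
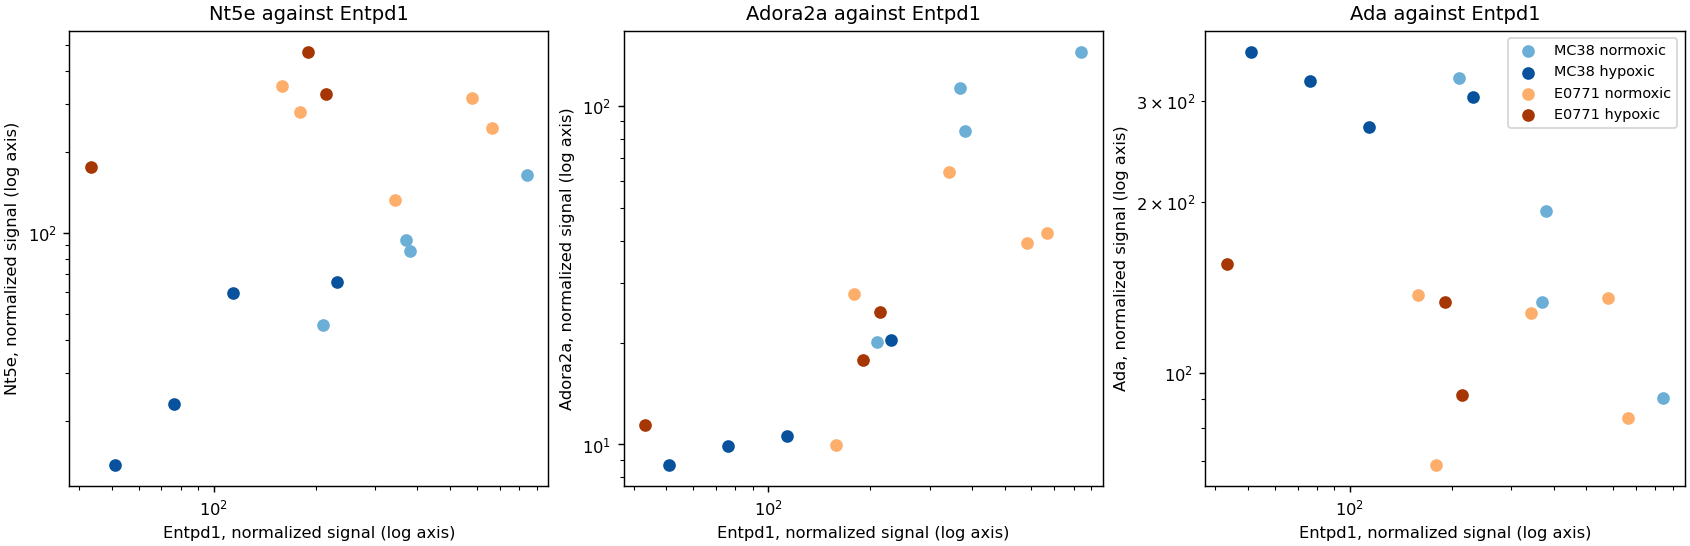
Normalized signals of Nt5e, Adora2a and Ada (y axes, log) against Entpd1 (x axis, log) in the 16 tumours, coloured by group. Within MC38, Nt5e and Adora2a climb with Entpd1 (r = 0.95 and 0.93) and Ada declines (-0.86), while the E0771 tumours show no such slope for Nt5e (r = 0.10).

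Each gene had its own company on the panel when genes were ranked by Pearson's r over the 16 tumours after each group's mean was subtracted. These values describe likeness across tumours that share a scaling and a depth. Entpd1 was most like H2-M3 (0.98), a non-classical MHC class I gene, Ly9 (0.98), a receptor of lymphocytes, Amica1 (0.97), a leukocyte adhesion molecule, Ptprc (0.97), which encodes the leukocyte antigen CD45, and Lyn (0.96), a kinase of B and myeloid cells. The median r of Entpd1 with the other 711 genes was 0.56. With median centring, H2-M3 dropped to 0.13, while Ly9 (0.92) and Ptprc (0.91) remained high. Adora2a was most like Tnfrsf13b (0.95), the B cell receptor TACI, Icam2 (0.94), an adhesion molecule, the eosinophil chemokine Ccl11 (0.94), the lymphocyte antigen Cd7 (0.94) and the checkpoint receptor Ctla4 (0.94), against a median of 0.60. Adora2a itself was above background in 11 of the 16 tumours. Tnfrsf13b was not above background in MC38 hypoxic 14 (13.23, level 13.54) or 25 (8.69, level 13.14). The same held in E0771 hypoxic 12 (13.68, level 42.95) and 22 (42.24, level 52.8), so this likeness rests in part on values near background. After median centring r was 0.85 for Tnfrsf13b, 0.82 for Ccl11 and for Cd7, 0.78 for Ctla4 and 0.57 for Icam2.

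Ada was unlike the other 3, with a median r of -0.44 over the other 711 genes. The 5 genes most like it were Isg15 (0.94), a ubiquitin-like antiviral protein, Bst2 (0.91), which tethers viruses to the cell, Oasl1 (0.87), Ifi35 (0.86) and the chemokine Cxcl11 (0.85). All 5 are known as interferon-induced genes. With tumours centred on the median gene, 4 of these 5 were again among the 5 most like Ada, with r = 0.97 for Isg15 and 0.96 for Bst2. Their levels between the lines were not all alike. In hypoxic tumours E0771 minus MC38 was -1.76 for Oasl1 and -2.71 for Cxcl11, which passed (limma adjusted p = 0.0181 and 0.0102), and -0.13 for Bst2 and -0.39 for Ifi35, which did not. Isg15 was at 3918 ± 676.3 in hypoxic and 2432 ± 1722 in normoxic MC38 tumours, and at 1422 ± 598.6 and 1233 ± 411.2 in hypoxic and normoxic E0771 tumours. Oasl1 (1.07, adjusted p = 0.0430) and Ifi35 (1.0, adjusted p = 0.0292) were 2 of the 4 genes that rose in hypoxic MC38 tumours (limma).

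Nt5e was less tied to the rest of the panel, with a median r of 0.30. The genes most like it were Mr1 (0.89), which presents microbial metabolites to T cells, Creb5 (0.87), a factor that binds cyclic AMP response elements, the costimulatory receptor Cd40 (0.86), the NKG2D ligand Ulbp1 (0.85) and the tetraspanin Cd63 (0.85). None of these 5 was among the 5 most like Nt5e when group means were kept. With median centring 3 of them stayed among the 5 most like Nt5e, and Cd63 dropped to 0.58. In hypoxic tumours E0771 minus MC38 was 1.72 for Cd40 (limma adjusted p = 0.0227), and 0.26 for Cd63 and 0.59 for Mr1, which did not pass.

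**Figure D5:**
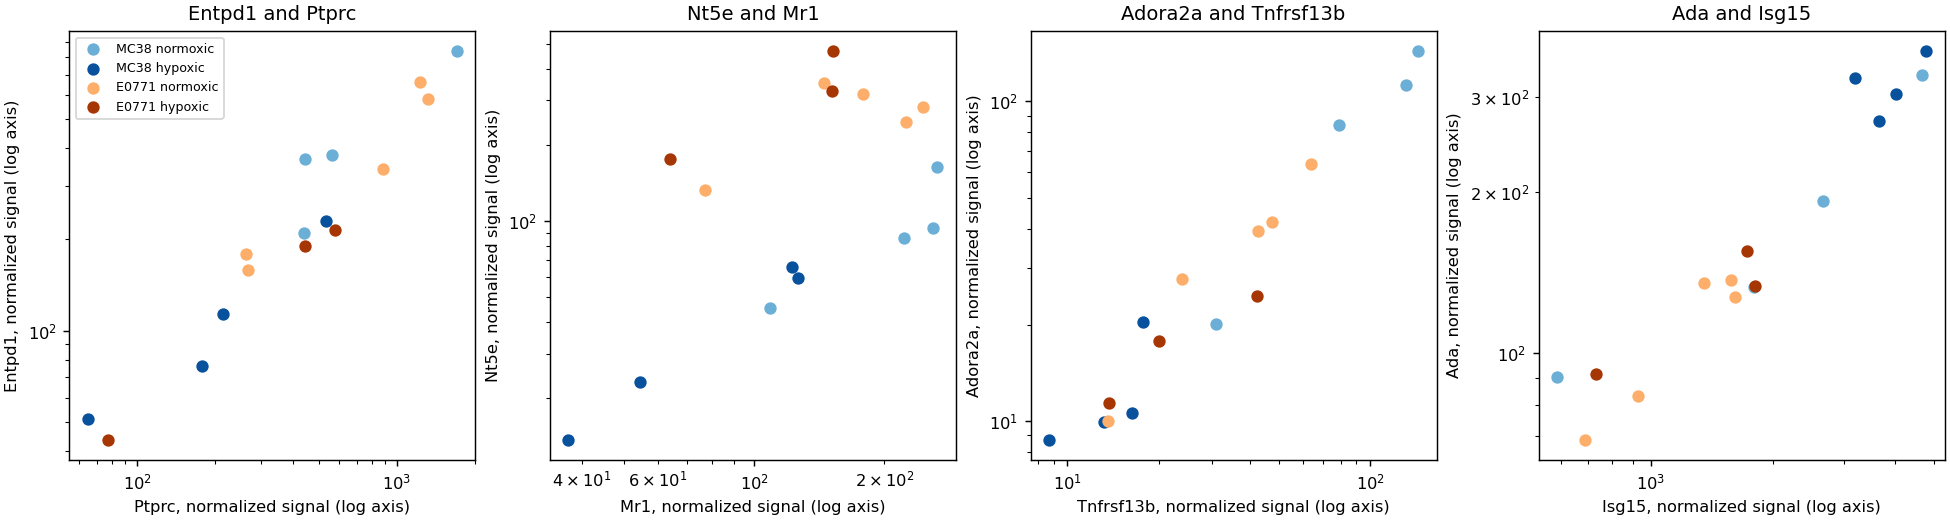
Each pathway gene (y axes) against one of the genes most like it (x axes), Ptprc for Entpd1, Mr1 for Nt5e, Tnfrsf13b for Adora2a and Isg15 for Ada, as normalized signal on log axes in the 16 tumours, coloured by group. Entpd1 follows Ptprc through all 4 groups, Ada follows Isg15, and for Nt5e the E0771 tumours lie above the MC38 tumours at a given level of Mr1.

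Many leukocyte markers had lower levels in hypoxic MC38 tumours too, and so did some markers of other cells. Ptprc was at 786.4 ± 613.0 in normoxic and 247.5 ± 200.7 in hypoxic MC38 tumours (log2 difference -1.78, limma adjusted p = 0.0576) and at 792.8 ± 508.1 and 366.6 ± 258.9 in E0771 (-1.22, adjusted p = 0.629). Summed macrophage signal (8 markers) ran from 6375 to 69459 (median 11327) in normoxic MC38 tumours and from 1545 to 6447 in hypoxic ones. Of these 8 markers 6 fell, where 48% of all genes fell. The summed signal of 9 T cell markers ran from 803.7 to 1742 and from 187.5 to 674.2 there, and 5 of the 9 fell, near that share. The NK cell list had 2 of 5 markers lower, the fibroblast and pericyte list 3 of 5 and the endothelial list 2 of 7. In E0771 none of these markers passed, and the T cell sum ran from 385.8 to 3823 in normoxic and from 291.9 to 1278 in hypoxic tumours. Their part in the pathway genes' differences was not tested.

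The genes were also set against markers of the same tumour, where the scaling factor cancels apart from the pseudocount of 1, which weighs on low values such as those of Adora2a. The log2 ratio of Entpd1 to Ptprc differed between hypoxic and normoxic tumours by -0.19 in MC38 and -0.21 in E0771, less than the SD within a group (0.30 to 0.41). Against the mean log2 level of the macrophage markers, Entpd1 was at -1.29 ± 0.58 in hypoxic and -1.29 ± 0.51 in normoxic MC38 tumours. In E0771 the change against these markers was -0.62. Relative to the other marker lists, Entpd1 in MC38 changed by -1.15 (endothelium) to 0.82 (B cells), with overlapping groups. Adora2a changed by -0.76 relative to Ptprc and by -0.51 relative to the T cell markers in MC38, with overlapping groups. Relative to the NK cell (-1.22), endothelial (-1.71) and fibroblast (-0.82) markers, all hypoxic MC38 tumours lay below all normoxic ones. Relative to every other marker list these groups overlapped, and relative to the B cell (0.26) and neutrophil (0.12) markers the change was upward. Adora2a was not above background in MC38 hypoxic 14 and 25. The ratio of Nt5e to Ptprc was 0.42 higher in hypoxic MC38 and 1.46 higher in hypoxic E0771 tumours, again overlapping. All hypoxic MC38 tumours lay above all normoxic ones when Nt5e was set against the B cell (1.43) and neutrophil (1.29) markers. The other lists gave changes of Nt5e in MC38 from -0.54 (endothelium) to 0.92 (dendritic cells), with overlapping groups. Ada relative to the T cell markers was at 3.29 ± 0.79 in hypoxic and 0.34 ± 1.34 in normoxic MC38 tumours, and here all 4 hypoxic tumours lay above all 4 normoxic ones. Relative to Ptprc it was 2.70 higher and to the macrophage markers 2.89 higher, with overlapping groups. Entpd1 relative to Nt5e was lower in each hypoxic MC38 tumour (0.92 to 1.82) than in each normoxic one (1.97 to 2.35). These ratios are given as descriptions with no test, and the share of all genes separated in the same way was not computed.

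The panel held 8 genes of a list of 40 around extracellular nucleotides, the 4 pathway genes included. Of these 8, 7 fell in hypoxic MC38 tumours, where 48% of all genes fell, and 0 in E0771, where 0% did. The 7 include Adora2a, which reached the filter through its normoxic tumours, so the count is a description only. The list median was -1.88 in MC38 (-1.27 for all genes) and -0.68 in E0771 (-0.36 for all genes). Besides Entpd1, Nt5e and Adora2a, the falls were Dpp4 (-2.56), a peptidase whose human form anchors adenosine deaminase at the cell surface, Bst1 (-1.80) and Cd38 (-1.44), ectoenzymes that consume NAD, and Gpr183 (-2.0), which is an oxysterol receptor and no nucleotide receptor. Dpp4 had signals of 333.7 ± 177.5 in normoxic and 57.2 ± 45.1 in hypoxic MC38 tumours, and Cd38 had 595.1 ± 255.7 and 230.5 ± 129.4. Ada was the gene of the 8 that did not fall.

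Of 20 genes downstream of cyclic AMP or known to act on the pathway, 12 were measured, of which 5 fell in hypoxic MC38 tumours, near the 48% of all genes, and 0 in E0771, where 0% of all genes did. The list median was -0.75 in MC38 and -0.08 in E0771 (-1.27 and -0.36 for all genes). The falls were Ifng (-2.53), the interferon gamma gene, Gfi1 (-2.25), a transcriptional repressor, Il6 (-1.78), an inflammatory cytokine, Creb5 (-1.49) and Vegfa (-1.23), a vascular growth factor that HIF-1 induces. Gfi1 reached the filter through its normoxic MC38 tumours (mean 68.0). Its other group means were 11.9, 21.7 and 12.2 (MC38 hypoxic, E0771 normoxic, E0771 hypoxic), so the count of 5 is a description only. Hif1a, which encodes the oxygen-regulated subunit of HIF-1, was at -0.74 in MC38 (limma adjusted p = 0.141) and -0.09 in E0771 (adjusted p = 0.956). Tgfb1, a cytokine known to raise CD39 and CD73 on T cells, was at 0.41 in MC38 (adjusted p = 0.488) and 0.76 in E0771 (adjusted p = 0.629). Ifng, like Adora2a, had a mean below the filter level of 24.0 in the hypoxic MC38 tumours (12.1 ± 8.50, against 68.7 ± 32.0 in normoxic ones).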

How the data were processed

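RNA of 16 mouse tumours was measured with the NanoString mouse PanCancer Immune panel, per the labels' protocols. The authors deposited 1 table of normalized signal, a linear value per probe (770 genes, 8 negative and 6 positive controls). The sources used here do not give their software or steps. The deposited values show 1 factor per tumour that equalizes 20 housekeeping genes, genes floored at 1, no background subtraction and unscaled controls. Gene values were whole multiples of the factor (0.631 to 3.52; 100.0% of low values within 0.1 step), which gave estimated counts, used for depth and voom weights. Such scaling makes differences relative to the housekeeping genes, and it multiplies the background in tumours of few counts (mean of scaled negatives 2.69 to 24.6). Intervals on counts were not computed.

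Log2(value + 1) was fitted with limma 3.58.1 (R 4.3.3; lmFit, eBayes with trend) on the 4 group means over 16 tumours. Benjamini-Hochberg adjustment covered 712 genes with a mean of at least 24.0, at a threshold of 0.05. Exact permutations used scipy 1.17.1. The members, gene lists and tests were chosen with earlier results of these data known. Named genes are the 4 members, list genes that passed plus up to 3 that did not, and the 5 genes most like each member. Tumours count as replicates by mouse number. A p-value sets a result only against the spread between these tumours, and limma borrows from other genes in estimating that spread. The fit was tested on simulated data. Alternatives covered scaling, filter, pseudocount, background, variance model, threshold and left-out tumours.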

Additional observations from a re-analysis of the deposited data

How the results depend on the processing

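With tumours centred on the median gene, which moved the median MC38 difference of all genes from -1.27 to -0.15, hypoxic minus normoxic MC38 became -0.85 for Entpd1 and -0.24 for Nt5e, neither passing, and 2.04 for Ada, now passing. The mean of both lines became 0.22 for Nt5e (turned), -0.91 for Adora2a (lost) and 1.34 for Ada (gained). Entpd1 turned to -0.15 for the difference between lines and to 0.091 and -0.058 for E0771 minus MC38 in normoxic and hypoxic tumours, and Nt5e in normoxic tumours passed at 1.88. With positive-control scaling Entpd1 (-1.85) and Nt5e (-1.23) were lost in MC38. In E0771 Entpd1 passed (-2.61), while Nt5e (-0.96) and Ada (-0.97) turned. The Entpd1 difference between lines turned (-0.76), and in hypoxic tumours E0771 minus MC38 turned for Entpd1 (-1.15) and Adora2a (-0.81), was lost for Nt5e (1.68) and passed for Ada (-2.77). Nt5e in MC38 was lost with a filter at 50 (-1.36), a pseudocount of 10 (-1.13), voom weights (-1.20) or 1 line only (-1.36). Nt5e between normoxic tumours passed without a filter, without trend or at an adjusted p of 0.10 (1.51 each), with a pseudocount of 10 (1.41) and with voom weights (1.66). Background subtraction turned Adora2a (-0.94) and let Ada pass (-1.55) between hypoxic tumours. At an adjusted p of 0.10 Ada passed in MC38 (0.92) and between hypoxic tumours (-1.34).

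With the 5 low-count tumours left out (2 hypoxic MC38 and 1 hypoxic E0771 tumour stay), MC38 calls were lost for Entpd1 (-1.29), Nt5e (-0.48) and Adora2a (-2.23), mean calls for Entpd1 (-1.03) and Adora2a (-1.38), and Nt5e between hypoxic tumours (2.89). The mean of Nt5e turned (0.089), and Nt5e between normoxic tumours passed (1.74). All-gene calls went from 346 to 0 in MC38 (190 centred, 209 on positive controls), from 300 to 0 for the mean (145 centred), from 0 to 129 in E0771 on positive controls, from 112 to 36 between normoxic tumours (59 with the filter at 50) and from 56 to 3 between hypoxic tumours. The cause of these changes was not tested.

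Leaving out 1 tumour at a time gave, for Entpd1, Nt5e, Adora2a and Ada in turn, these ranges. In MC38 they were -2.37 to -1.61, -1.68 to -0.95, -3.14 to -2.21 and 0.63 to 1.24. In E0771 they were -1.84 to -0.69, -0.08 to 0.63, -1.23 to -0.56 and 0.06 to 0.43. The mean of both lines gave -1.90 to -1.33, -0.72 to -0.35, -1.99 to -1.52 and 0.42 to 0.73. The difference between lines gave 0.14 to 1.28, 1.20 to 2.0, 1.31 to 2.30 and -1.03 to -0.41. E0771 minus MC38 gave -0.58 to 0.08, 1.20 to 1.81, -1.79 to -0.80 and -0.93 to -0.31 in normoxic tumours, and -0.14 to 1.0, 2.71 to 3.51, 0.26 to 0.78 and -1.50 to -1.13 in hypoxic tumours. Entpd1 between lines turned sign without MC38 normoxic 4 (0.084), MC38 hypoxic 25 (-0.05), E0771 hypoxic 22 (-0.14) or E0771 hypoxic 55 (-0.05), and Nt5e in E0771 turned without E0771 hypoxic 55 (-0.076). No paired analysis was possible because the groups compared share fewer than 2 mouse numbers. A count test on recovered reads (edgeR) was planned and not run, since control probes in the same columns are unscaled and low genes were raised to 1.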
